A study of Mus musculus with 12 samples.

Results

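Chemokines and their receptors were taken from the array by gene name, as every probe whose name in the scanner files begins with Ccl, Cxcl, Xcl, Cx3cl, Ccr, Cxcr, Cx3cr or Xcr and a number, plus the older receptor names Il8rb (now Cxcr2) and Blr1 (now Cxcr5). This gave 70 of 41174 probes, which stand for 53 of 22410 named genes, 35 of them ligands and 18 receptors. Of these, 32 ligands and all 18 receptors had a probe well above background for knockout or for wild-type RNA on at least 6 of 12 arrays and were tested. Ccl22, Cxcl11 and Xcl1 did not pass that filter, with at most 3 of 12 arrays above background for either RNA. The platelet chemokines Pf4 and Ppbp carry the older names Cxcl4 and Cxcl7 in the files and are members. Each gene is described by its brightest kept probe.

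The RNA came from lung tumours of C57/129 mice that carried K-ras LSL-G12D, a mutant K-ras allele that stays silent until Cre recombinase acts, crossed with mice carrying conditional knockout alleles of the DNA methyltransferase Dnmt3a. Adenovirus carrying Cre was given to the airways at 6 to 12 weeks of age, so KO and WT tumours shared the K-ras mutation and the viral treatment and differed in being homozygous KO or WT at Dnmt3a. The labels name no promoter for the viral Cre, and tumour cells of other origin that the virus did not reach keep their alleles. Each of 12 two-colour arrays compared KO with WT tumour RNA, and KO RNA carried Cy5 on 6 of them and Cy3 on the rest. By age and sex in the labels the arrays form 4 pairs. Pair A (replicates 1 to 4, slide 1) has a KO age of 47.7 and a WT age of 42.6, and pair B (replicates 5 to 8, slide 2) has ages of 27 and 41.3. Pair C (replicates 9 and 10) has ages of 27 and 47.6 and the only female, its WT animal, while pair D (replicates 11 and 12) has ages of 29.1 and 37.3; both lie on slide 3, and all other animals are labelled male. The labels call the arrays biological replicates, give no unit for these ages and do not say whether arrays of a pair, or the equally old KO mice in pairs B and C, are separate animals. P-values therefore reflect the spread among these samples alone, possibly a technical one, and genotype cannot be told apart from the younger KO age in pairs B, C and D.

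Chemokines are small secreted proteins that bind to heparan sulphate on vessel walls and matrix and draw leukocytes along their gradient. Their receptors are membrane proteins that signal through inhibitory G proteins, are phosphorylated by G-protein-coupled receptor kinases and are then bound by arrestins, while atypical receptors bind chemokines without G-protein signalling and clear them. In lung, Ccl6 is made by macrophages and related myeloid cells, Cxcl15 (lungkine) and Cxcl17 are made by airway and alveolar epithelium, and Cxcl12 is made by stromal and endothelial cells. In whole tumour tissue, fewer cells of a type and less RNA per cell cannot be told apart.

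On the arrays, 59.0% to 89.6% of probes were well above background, lowest on slide 3 (at most 72.2%), and 0 probes were saturated. Slide 3, with pairs C and D, was scanned on another date than slides 1 and 2. Its arrays had 518 to 828 outlier spots, against 86 to 133 on slides 1 and 2. Across genes, the mean correlation between 2 arrays was 0.30 within a pair and 0.20 between pairs. The targeted gene, Dnmt3a, had log2 KO over WT ratios from -0.41 to -0.055 on single arrays, with a median of -0.17. All 12 arrays lay below 0, and the estimate was -0.21 ± 0.046 (SE, n = 12 arrays, limma, Benjamini-Hochberg adjusted p = 0.0213). That call ended without any one of the pairs (adjusted p from 0.0567 to 0.0766), with median centring (-0.17, adjusted p = 0.126), with outlying local backgrounds not replaced (-0.15, adjusted p = 0.0803) and over the 4 pair means (-0.23, adjusted p = 0.180). These values are from the brightest of 3 kept Dnmt3a probes, and the others are not reported singly. Whether the brightest probe lies in the deleted part is not stated in the labels, so it does not check them.

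Among the ligands, 4 fell and 2 rose in KO tumours, and no receptor passed the test. The lower ligands were Cxcl12, which keeps stem cells and leukocytes near stroma, the myeloid chemokine Ccl6, Ccl17, which attracts Ccr4-bearing T cells, and Ccl21c, which guides Ccr7-bearing lymphocytes and dendritic cells. The higher ligands were the platelet chemokine Pf4 and the epithelial chemokine Ccl27a. The test was limma on log2 ratios of KO over WT with a dye term and the pair as a random block, called at an adjusted p under 0.05 over 20597 genes. By that rule 7.14% of all genes were called, 3.37% higher and 3.77% lower, against 6 of the 50 tested member genes. With single arrays left out, the count of lower ligands ran from 1 to 4 and was 1 without replicate 1, 3, 4, 9, 11 or 12, and that of higher ligands ran from 1 to 3 and was 1 without replicate 1, 2 or 12. At an unadjusted p under 0.05 the fit gave 10 of 32 ligands and 1 of 18 receptors, beside 22.4% of all genes. The median log2 ratio was -0.095 over the ligands and -0.041 over the receptors, against -0.0056 over all genes tested. Ratios lay below 0 for 23 of 32 ligands and 14 of 18 receptors, beside 10821 of all 20597 genes tested. No test compared these counts.

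**Figure D1:**
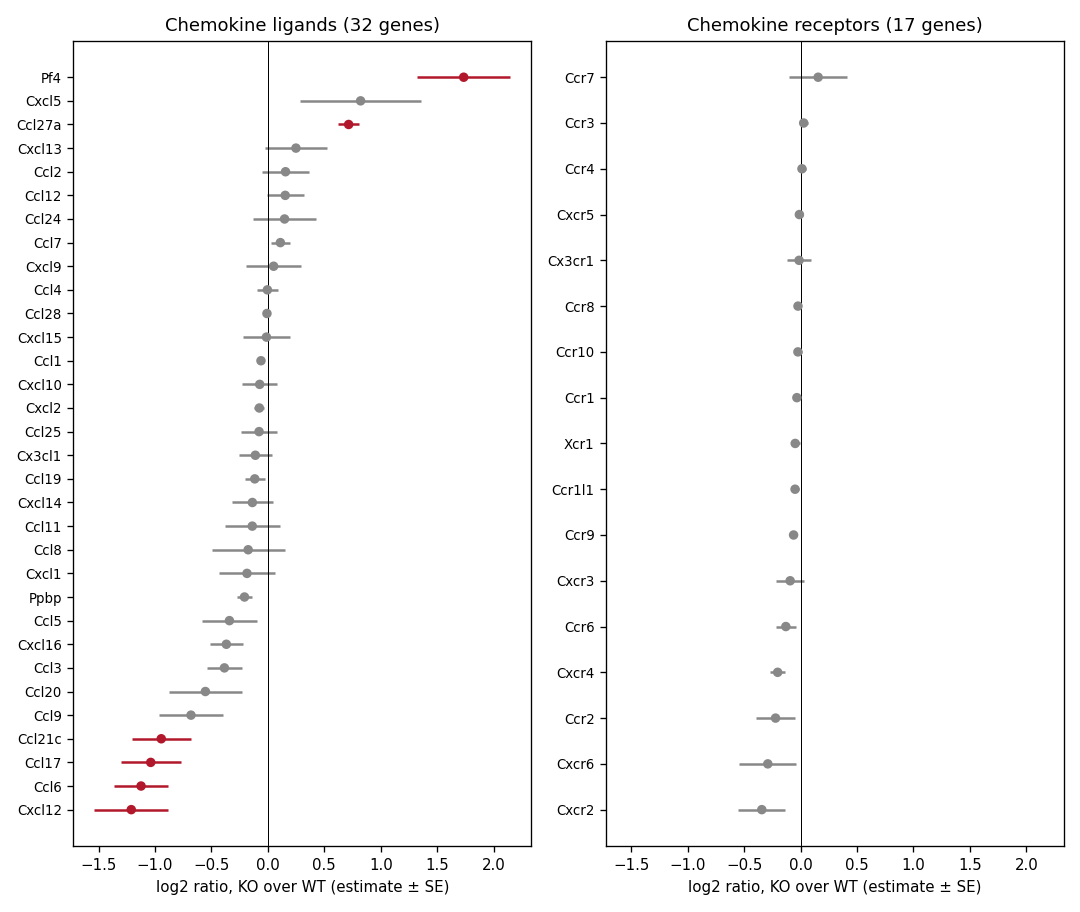
Estimated log2 ratio of KO over WT (x axis) for 32 tested ligands (left) and 17 of the 18 tested receptors (right), with bars of 1 standard error over 12 arrays and genes with an adjusted p under 0.05 in red. The called ligands lie at 0.72 and 1.74 on the higher side and between -1.21 and -0.95 on the lower side, while the receptors lie between -0.34 and 0.16, none of them in red.

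The ligands also spread more than the receptors from array to array. The median standard deviation of a gene's 12 ratios was 0.70 over the ligands, 0.20 over the receptors and 0.29 over all genes tested. At least 10 of 12 arrays shared their sign for 8 ligands (25.0%), 0 receptors and 17.2% of all genes. Median WT log2 signals ran from 6.28 (Ccl11) to 15.8 (Ccl6) among the tested ligands. Among the receptors reported singly they ran from 6.31 (Ccr1, above background on 5 KO and 6 WT arrays) to 8.89 (Xcr1). An offset of 50 was added to the signals and compresses the ratios of dim spots. This limits what a narrow spread or a missing call shows. No test compared these spreads, and what signal level contributed to them was not tested.

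The 250 bases before the RefSeq transcription start (build GRCm38.p6) are shown for the called ligands that the promoter table lists, because Dnmt3a methylates cytosine in CpG pairs. Capitals mark each CG pair; DNA methylation was not measured on these arrays, and the count of pairs says nothing of their methylation.
Cxcl12: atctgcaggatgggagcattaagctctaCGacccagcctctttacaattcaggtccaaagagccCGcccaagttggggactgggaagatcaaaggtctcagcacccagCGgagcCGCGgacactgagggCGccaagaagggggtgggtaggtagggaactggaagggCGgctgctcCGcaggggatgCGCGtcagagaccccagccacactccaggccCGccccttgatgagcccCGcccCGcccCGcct
Ccl6: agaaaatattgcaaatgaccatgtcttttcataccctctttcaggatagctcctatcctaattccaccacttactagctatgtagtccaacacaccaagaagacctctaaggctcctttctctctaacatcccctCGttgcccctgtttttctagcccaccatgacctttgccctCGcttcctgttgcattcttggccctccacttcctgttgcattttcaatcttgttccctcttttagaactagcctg
Ccl17: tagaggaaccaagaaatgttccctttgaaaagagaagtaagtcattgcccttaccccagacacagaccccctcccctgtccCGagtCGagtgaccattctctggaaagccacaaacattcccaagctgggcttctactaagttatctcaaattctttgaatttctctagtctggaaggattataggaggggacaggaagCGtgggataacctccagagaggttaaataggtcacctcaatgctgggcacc
Pf4: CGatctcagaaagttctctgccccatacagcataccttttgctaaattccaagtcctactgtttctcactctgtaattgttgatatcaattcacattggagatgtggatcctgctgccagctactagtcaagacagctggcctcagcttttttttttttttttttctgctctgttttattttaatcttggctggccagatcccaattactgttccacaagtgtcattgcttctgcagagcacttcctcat
Ccl27a: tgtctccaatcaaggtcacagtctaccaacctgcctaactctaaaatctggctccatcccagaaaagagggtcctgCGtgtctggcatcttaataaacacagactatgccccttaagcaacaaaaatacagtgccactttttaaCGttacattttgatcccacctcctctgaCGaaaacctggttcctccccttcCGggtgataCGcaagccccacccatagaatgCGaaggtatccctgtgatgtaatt

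These windows lie at chr6:117168285-117168534 (plus strand) for Cxcl12, chr11:83593088-83593337 (minus strand) for Ccl6 and chr8:94810203-94810452 (plus strand) for Ccl17. The window of Pf4 is at chr5:90772185-90772434 (plus strand), and that of Ccl27a, the first of 3 listed starts, at chr4:41774177-41774426 (minus strand). Cxcl12 holds 14 CG pairs, more than 70.6% of the 32841 listed windows. Ccl27a holds 6, Ccl17 holds 3, Ccl6 holds 2 and Pf4 holds 1, so the lower and the higher ligands both include windows with few pairs. At the other listed starts of Ccl27a the count was 4 and 12. Of the 53 members, 39 matched the table by symbol, and 29 of these (74.4%) held at most 5 CG pairs, against 49.6% of all listed windows. The median was 3 against 6. Members were counted by their first listed start only, while the listed windows hold every start of every gene, so the sets are unlike. Receptors were the poorer group, with 13 of 14 at or under 5 pairs, against 16 of 25 ligands.

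Other letters were searched in the same windows on both strands, counting overlaps. Members again count by their first listed start, and all windows by every listed start. A TATA box (TATAAA) was found in 28.2% of the member windows and 12.4% of all windows. The NF-kappaB consensus motif was found in 15.4% against 3.9%, in Ccl20, Ccl9, Cxcl1, Cxcl10, Cxcl2 and the receptor Ccr3. The GAS element (TTCNNNGAA) was found in 10.3% against 7.0%, and of the 5 windows shown Ccl17 held it. Matches are letters in a window, and binding was not measured.

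Cxcl12, the ligand of Cxcr4 and of the scavenger Ackr3, was read by a probe at chr6:117207552-117207611 (mm7, the build of the files). Its log2 ratio ran from -2.99 on replicate 1 to 0.29 on replicate 8, with a median of -1.04. It was lower on 9 of 12 arrays, and all 3 arrays above 0 belong to pair B. The estimate was -1.21 ± 0.33, a 2.31-fold lower level in KO RNA (n = 12 arrays, limma adjusted p = 0.0474). The plain means of each pair's arrays, here and for the genes that follow without removal of the dye effect, were -1.89 (A), -0.075 (B), -0.66 (C) and -2.56 (D), so pair B showed almost no difference while A and D were far below 0. Leaving out 1 array ended the call for every array but replicates 5 and 8, with adjusted p up to 0.101. It also ended without pair A (-0.88, adjusted p = 0.220), pair C (-1.31, adjusted p = 0.0994) or pair D (-0.89, adjusted p = 0.165). A second Cxcl12 probe, drawn on another RefSeq transcript, gave -0.65 ± 0.27 (limma over all probes, adjusted p = 0.193), also lower on 9 of 12 arrays.

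Ccl6, a CC chemokine of rodents, was read by a probe at chr11:83658400-83658459 (mm7). Its ratio ran from -2.64 on replicate 1 to 0.13 on replicate 2, with a median of -1.04, and 11 of 12 arrays were below 0. The estimate was -1.12 ± 0.24, 2.18-fold lower in KO RNA (n = 12 arrays, limma adjusted p = 0.0200). Pair means were -1.12 (A), -1.11 (B), -1.49 (C) and -0.78 (D), all below 0. With single arrays left out the call held each time, the highest adjusted p being 0.0483. The estimate hardly moved without pair A (-1.13, adjusted p = 0.0648), without pair B (-1.13, adjusted p = 0.0632) or within slides 1, 2 and 3 (-1.12, -1.11 and -1.14), but the test was not passed there. Normalized log2 signal of the probe spanned 13.6 to 15.7 for KO RNA and 14.8 to 17.0 for WT RNA, so the ranges of the groups overlapped while most arrays showed the lower KO value.

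Ccl17, a ligand of Ccr4 made by dendritic cells and macrophages, was lower on 12 of 12 arrays. The probe lies at chr8:93400914-93400973 (mm7). Ratios ran from -3.11 on replicate 12 to -0.010 on replicate 8, with a median of -0.60. The estimate was -1.04 ± 0.27, 2.05-fold lower in KO RNA (n = 12 arrays, limma adjusted p = 0.0390). Pair means were -1.30 (A), -0.27 (B), -0.48 (C) and -2.49 (D), with the lowest values on replicates 4 and 12 and pair B nearest 0. Leaving out replicate 1, 3, 4, 7, 9, 10, 11 or 12 ended the call (adjusted p from 0.0526 to 0.0698). Leaving out pair A (-0.91, adjusted p = 0.186), pair C (-1.07, adjusted p = 0.103) or pair D (-0.76, adjusted p = 0.110) did so too. Ccl22, the other Ccr4 ligand, was not above background on any array, and Ccr4 itself stood at 0.012 ± 0.033.

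Ccl21c, a ligand of Ccr7 made by lymphatic endothelium and lymph node stroma, was lower on 11 of 12 arrays. Its probe is placed on an unassigned contig in the files (mm7), and the mouse has near-identical Ccl21 copies, so the probe cannot be given to one copy. Ratios ran from -2.88 on replicate 1 to 0.11 on replicate 7, with a median of -0.82. The estimate was -0.95 ± 0.26, 1.93-fold lower in KO RNA (n = 12 arrays, limma adjusted p = 0.0498). Pair means were -1.60 (A), -0.39 (B), -0.39 (C) and -1.33 (D), nearer 0 in B and C than in A and D. The call ended with replicate 1, 2, 3, 4, 6, 8, 9, 11 or 12 left out (adjusted p from 0.0553 to 0.0974) and with any pair left out, at -0.64 without A, -1.23 without B, -1.11 without C and -0.83 without D (adjusted p = 0.0733, 0.0671, 0.0674 and 0.155). With all 12 arrays kept, it also ended with the authors' log ratios (limma adjusted p = 0.0505) and Agilent's processed signals (0.0517). No filter on dim probes (0.0510), outlying local backgrounds not replaced (0.0860) and median centring (0.114) ended it too. Of the other lymphoid homing genes, Ccl19, the second Ccr7 ligand, stood at -0.12 ± 0.089, while its dimmer probe gave -0.52 ± 0.15 (limma over all probes, adjusted p = 0.057). Cxcl13, which attracts B cells, stood at 0.25 ± 0.28, its receptor Cxcr5 at -0.011 ± 0.036, and Ccr7 at 0.16 ± 0.26.

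**Figure D2:**
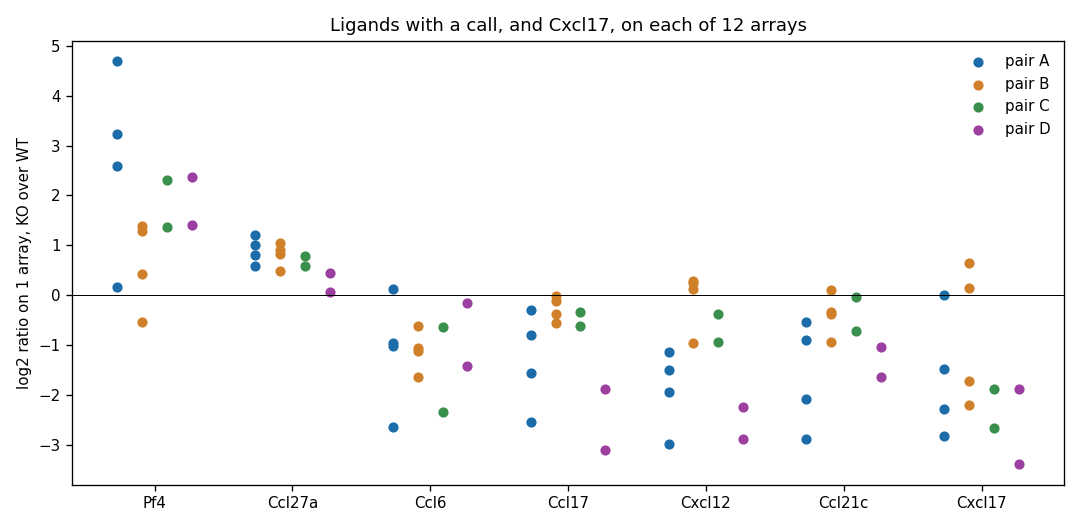
Log2 ratio of KO over WT on each of 12 arrays (1 point per array, dye effect not removed) for the 6 called ligands and Cxcl17, coloured by pair. Ccl27a lies above 0 and Ccl17 below 0 on every array, and Cxcl12 lies near or above 0 on 3 of 4 arrays of pair B.

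Pf4 (platelet factor 4, also Cxcl4), a chemokine stored in platelet granules and also made by megakaryocytes and some myeloid cells, had the largest estimate of the members. Its probe is at chr5:90744523-90744582 (mm7). Ratios ran from -0.53 on replicate 5 to 4.70 on replicate 3, with a median of 1.40, and 11 of 12 arrays were above 0. The estimate was 1.74 ± 0.41, 3.33-fold higher in KO RNA (n = 12 arrays, limma adjusted p = 0.0297). Pair means were 2.67 (A), 0.64 (B), 1.85 (C) and 1.89 (D), with replicates 4 and 5 as the low arrays. The call ended with replicate 1, 2 or 12 left out (adjusted p from 0.0576 to 0.0684), and with pair A, C or D left out, at 1.29, 1.80 and 1.60 (adjusted p = 0.0912, 0.0779 and 0.0955).

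Ppbp, the neighbouring gene and another chemokine stored in platelets, stood on the other side of 0. Its ratio ran from -0.65 to 0.015 with a median of -0.19, lower on 10 of 12 arrays, and the estimate of -0.21 ± 0.066 did not pass the test (limma adjusted p = 0.0828). Among 10 platelet marker genes, Pf4 and Ppbp included, Pf4 rose, Gp9 fell (-0.33 ± 0.088, adjusted p = 0.0436) and 8 did not pass, with a median of -0.072. The summed platelet signal ran from 4582 to 67872 in KO and from 3816 to 25014 in WT RNA, and was lower in KO RNA on 1 array. Most of that sum was the signal of Pf4 itself, so it largely repeats the Pf4 ratio and is not a separate measure of platelets. No platelet marker was at 0 signal, and what platelets contributed to the Pf4 ratio was not tested.

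Ccl27a, a skin and mucosal ligand of Ccr10, was higher on 12 of 12 arrays, with the smallest p among the members. Ratios ran from 0.066 on replicate 11 to 1.21 on replicate 4, with a median of 0.79. The estimate was 0.72 ± 0.094, 1.64-fold higher in KO RNA (n = 12 arrays, limma adjusted p = 0.00194), and the call held with any single array or any pair left out. It ended over the 4 pair means (0.66, adjusted p = 0.108). Pair means were 0.90 (A), 0.82 (B), 0.68 (C) and 0.25 (D). The probe, at chr4:41908195-41908254 (mm7), carries the file's name Ccl27; the gene has a near-identical copy, Ccl27b, and lies next to Il11ra1, so the signal cannot be given to one of these. The receptor Ccr10 stood at -0.024 ± 0.035.

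**Figure D3:**
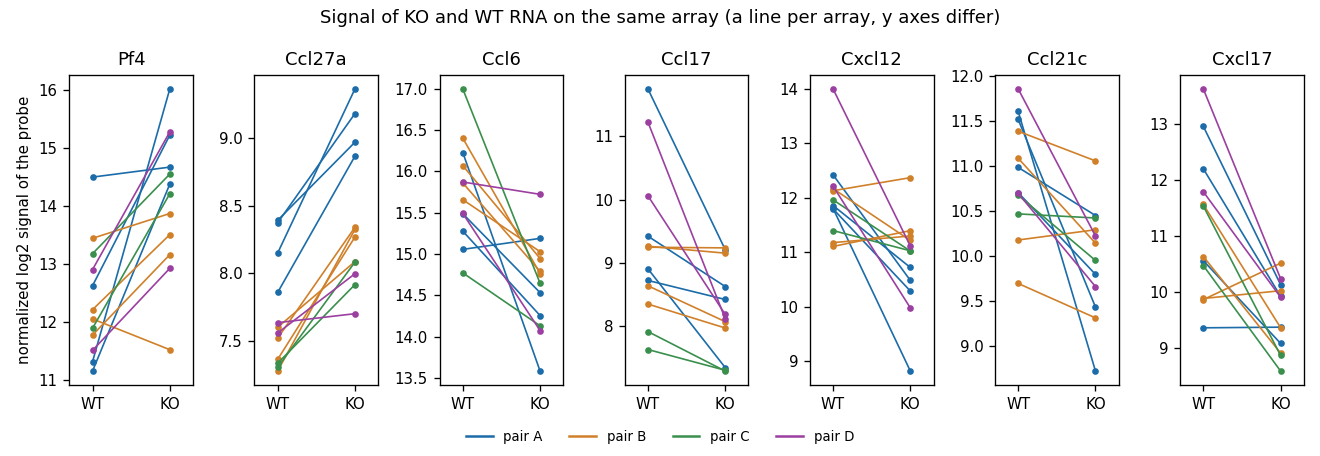
Normalized log2 signal of the probe for WT and KO RNA of the same array (1 line per array, coloured by pair) for the 6 called ligands and Cxcl17. Lines rise from WT to KO on 11 of 12 arrays for Pf4 and 12 of 12 for Ccl27a, and the KO and WT ranges of each gene overlap.

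Of the epithelial chemokines, Cxcl15 had no call. Its ratio ran from -1.16 on replicate 4 to 0.94 on replicate 6 with a median of -0.016, above 0 on 6 arrays and below on 6. The estimate was -0.013 ± 0.21 (limma adjusted p = 0.982), and its sign turned with several other settings, such as median centring (0.093) and array weights (0.052). Pair A stood at -0.49 and pair B at 0.52. Cxcl17, a mucosal chemokine carried in the files under a clone name and so outside the name rule, fell. Its ratio ran from -3.39 on replicate 11 to 0.65 on replicate 5 and lay below 0 on 9 of 12 arrays, with pair means of -1.64 (A), -0.78 (B), -2.28 (C) and -2.64 (D). The estimate was -1.67 ± 0.38 (n = 12 arrays, limma adjusted p = 0.0265), and leaving out replicate 1, 2, 3, 7, 9 or 12 ended the call (adjusted p from 0.0502 to 0.0569). So did leaving out pair A, C or D (adjusted p = 0.118, 0.0961 and 0.0853), median centring (adjusted p = 0.0808) and taking the 4 pair means (adjusted p = 0.104). The remaining mucosal ligands were Ccl20, which attracts Ccr6-bearing cells (-0.55 ± 0.33), Cxcl14 (-0.14 ± 0.18), Ccl25 (-0.078 ± 0.16) and Ccl28 (-0.0083 ± 0.031), none of which passed.

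The macrophage inflammatory ligands lie side by side on chromosome 11, and all 5 had estimates below 0, with a median of -0.39. Beside Ccl6, Ccl9 stood at -0.68 ± 0.28 (limma adjusted p = 0.179), Ccl3 at -0.39 ± 0.15 (adjusted p = 0.163), Ccl5 at -0.34 ± 0.24 and Ccl4 at -0.0045 ± 0.094. Ccl9 followed Ccl6 on replicates 1 (-2.29), 9 (-1.46) and 12 (-2.25) but stood at 0.46 on replicate 5 and 0.25 on replicate 3. Ccl5, the T-cell attractant, was above 0 on replicates 1, 2, 3 and 5 and below 0 on the other 8. Of their receptors, Ccr1 stood at -0.033 and Ccr1l1 at -0.049.

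The monocyte ligands, most of them in the neighbouring cluster on chromosome 11, had no call. Ccl2 stood at 0.16 ± 0.20, Ccl7 at 0.11 ± 0.083, Ccl12 at 0.15 ± 0.16 and Ccl8 at -0.17 ± 0.32. Ccl2 was lowest in pair D (-0.95 and -0.77 on its 2 arrays) and highest in pair B (up to 1.20). The eosinophil ligand Ccl11 stood at 0.29 (A), 0.16 (B) and -0.12 (C) as pair means but at -2.31 on replicate 11, the only array of pair D that measured it. The tethered ligand Cx3cl1 stood at -0.11 ± 0.15 and its receptor Cx3cr1 at -0.014 ± 0.11, while Ccr2, the receptor of Ccl2, stood at -0.22 ± 0.17.

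Some ligands owed their range to 1 array. Cxcl5, a neutrophil attractant, was above 0 on 11 of 12 arrays, up to 3.64 on replicate 4, but stood at -3.55 on replicate 11. Its estimate of 0.82 ± 0.54 did not pass (limma adjusted p = 0.414), and WT RNA was above background on 6 arrays only. Ccl24, an eosinophil ligand, reached 2.93 on replicate 8 and lay between -0.67 and 0.56 on the other arrays. The other neutrophil ligands, Cxcl1 and Cxcl2, stood at -0.19 ± 0.25 and -0.076 ± 0.044, with Cxcl1 at -1.07 and -1.03 on the arrays of pair D and above 0 on all 4 of pair A. The interferon-inducible ligands Cxcl9 and Cxcl10 stood at 0.051 ± 0.25 and -0.073 ± 0.16, with replicate 5 the highest array for both. Cxcl16, the ligand of Cxcr6, stood at -0.37 ± 0.15 (adjusted p = 0.157) and -0.37 ± 0.11 at its second probe.

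The receptors stayed in a narrow band. With limma 0 of 18 passed after adjustment, and Cxcr4 alone had an unadjusted p under 0.05. Cxcr4, the receptor of Cxcl12, ran from -0.52 to 0.29 with a median of -0.23, and its estimate was -0.20 ± 0.069 (n = 11 arrays, replicate 11 dropped as an outlier spot, limma adjusted p = 0.104). Its second probe gave 0.025 ± 0.061, the opposite sign. The neutrophil receptor Cxcr2 had the largest estimate, at -0.34 ± 0.21 (adjusted p = 0.366). That value came from replicates 1 (-1.79), 9 (-1.08) and 12 (-1.44), while the other 9 arrays lay between -0.18 and 0.22. Cxcr6, on T and NK cells, stood at -0.29 ± 0.25 and Ccr6 at -0.13 ± 0.086. Ccr9 (-0.062 ± 0.033), Ccr8 (-0.023 ± 0.026), Ccr3 (0.027 ± 0.035) and Xcr1 (-0.048 ± 0.038) had small errors and small differences. Their median WT log2 signals were 7.72, 6.68, 7.74 and 8.89, and Ccr8 was above background on 8 of 12 arrays for either RNA. Since ratios of dim spots are compressed, small errors there do not show that a receptor kept its level. Ccr7 reached 2.64 on replicate 12 and lay between -0.71 and 0.27 on the others. Cxcr3, the receptor of Cxcl9 and Cxcl10, stood at -0.093 ± 0.12.

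**Figure D4:**
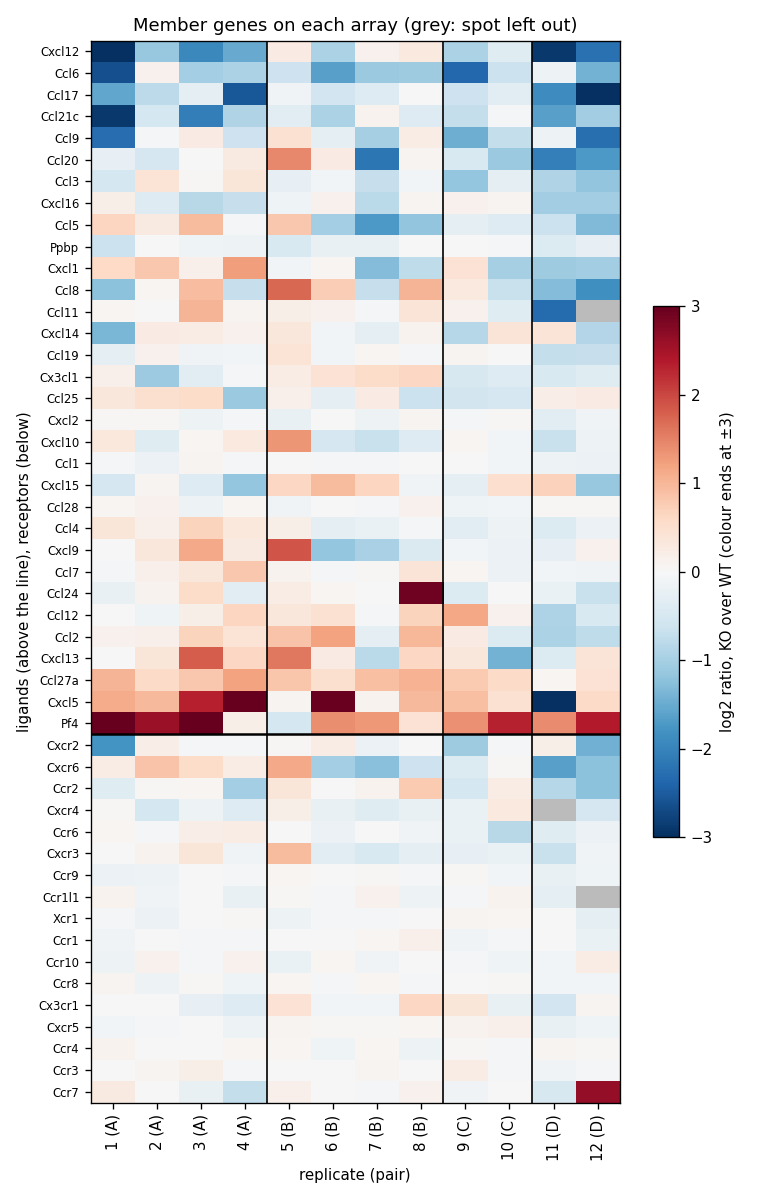
Log2 ratio of KO over WT for 49 of the 50 tested members (rows, ligands above the line and receptors below, each sorted by estimate) on each array (columns, with the pair in brackets), with colour ending at 3 and -3 and spots left out in grey. Wide swings lie among the ligands, and the columns of pair D hold the most low values.

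Pair D set itself apart in its ligands. On its arrays the median ligand ratio was -0.44 (replicate 11) and -0.67 (replicate 12), with 26 and 24 of 32 ligands below 0, while the other 10 arrays lay between -0.18 and 0.20. On both arrays of pair D, 22 ligands were below 0, against 4 above, and 10 receptors were below 0, against 1 above. Over all genes 35.3% were below 0 on both arrays and 29.0% were above. By pair, the ligand median was 0.065 (A), 0.026 (B), -0.11 (C) and -0.55 (D). An F test across the 4 pairs called 0 members and 70 of 20490 genes (limma, 0.342%), the smallest adjusted p of a member being 0.141 for Ccl11. Pair D has 2 arrays, both with KO RNA in Cy3 and on slide 3, whose arrays had the fewest probes above background. Its own arrays therefore cannot separate pair from dye. The F test used a dye term shared by all pairs, while the medians given here keep the dye effect.

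**Figure D5:**
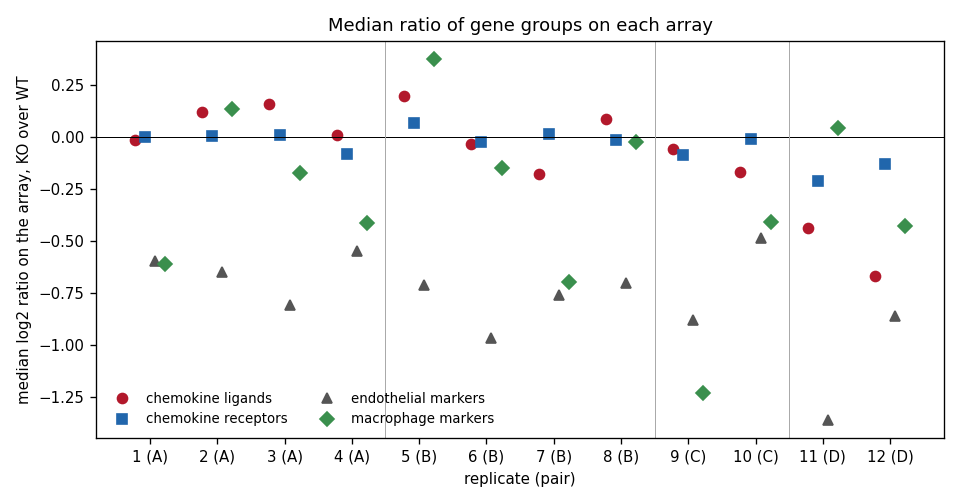
Median log2 ratio of KO over WT on each array for 32 chemokine ligands, 18 chemokine receptors, 8 endothelial markers and 10 macrophage markers (x axis, replicate with its pair). The endothelial medians lie between -1.36 and -0.49 on every array, the ligand medians are lowest on the arrays of pair D, at -0.44 and -0.67, and the receptor medians stay between -0.21 and 0.064.

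The atypical receptors and other chemokine-binding genes formed a list of 11 tested genes, Pf4 and Ppbp among them, of which 4 fell and 1 (Pf4) rose, beside 3.77% and 3.37% of all genes. Ackr3, the scavenger of Cxcl12, ran from -1.99 to -0.26 with a median of -0.96, below 0 on 12 of 12 arrays. Its estimate was -1.09 ± 0.16 (limma adjusted p = 0.00295), with pair means of -1.70 (A), -0.57 (B), -0.71 (C) and -1.32 (D). Ackr2, the scavenger of inflammatory CC chemokines, ran from -1.89 to -0.48, also below 0 on 12 of 12 arrays, with an estimate of -0.98 ± 0.12 (adjusted p = 0.00137). Ccrl2, which presents chemerin, stood at -0.61 ± 0.12 (adjusted p = 0.0115) and Ackr1, the vascular chemokine carrier, at -0.28 ± 0.056 (adjusted p = 0.0142), each lower on 11 of 12 arrays. The call of Ackr1 ended without pair A (-0.31, adjusted p = 0.0946) or C (-0.25, adjusted p = 0.0505), with median centring (adjusted p = 0.125) and with outlying local backgrounds not replaced (adjusted p = 0.0562). That of Ccrl2 ended without pair C (-0.56, adjusted p = 0.0532) and with median centring (-0.58, adjusted p = 0.0514). Over the 4 pair means none of the 4 held a call, with adjusted p = 0.118 for Ackr3, 0.0703 for Ackr2, 0.167 for Ccrl2 and 0.175 for Ackr1. Ackr4 (under its older name Ccrl1 here) stood at 0.017 ± 0.036, the chemerin receptor Cmklr1 at -0.059 ± 0.027 and chemerin itself, Rarres2, at -0.48 ± 0.22.

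Of 23 tested genes of receptor signalling, 4 fell and 0 rose in limma, beside 3.77% of all genes called lower. Their median was -0.17, and 19 lay below 0, beside 10821 of all 20597 genes tested. An unadjusted p under 0.05 was seen for 7 of the 23, beside 22.4% of all genes. The receptor kinase Grk5 fell on 12 of 12 arrays, from -1.22 to -0.30, with an estimate of -0.76 ± 0.093 (adjusted p = 0.00137). The arrestin Arrb1 stood at -0.68 ± 0.11 (adjusted p = 0.0045), Grk2 at -0.44 ± 0.10 (adjusted p = 0.0257) and the kinase Jak2 at -0.42 ± 0.097 (adjusted p = 0.027). Leaving out replicate 1, 3 or 12 ended the call of Grk2 (adjusted p up to 0.0583), and leaving out replicate 2 or 12 that of Jak2 (adjusted p from 0.0506 to 0.0566). Without pair A, B or D the call of Grk2 ended (adjusted p = 0.0717, 0.160 and 0.0827), and without pair A, C or D that of Jak2 (adjusted p = 0.119, 0.0969 and 0.0802). With median centring Grk2, Jak2 and Arrb1 missed the threshold (adjusted p = 0.166, 0.196 and 0.0856). Over the 4 pair means they did too (adjusted p = 0.207, 0.128 and 0.0831), while Grk5 kept its call (adjusted p = 0.0437). Taking the mean of its probes also ended the call of Grk2 (-0.27, adjusted p = 0.0550). The inhibitory G protein genes Gnai2 and Gnai3 stood at -0.034 ± 0.19 and 0.086 ± 0.083.

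Marker lists of the cell types that make or carry chemokines were read on the same arrays. All 8 endothelial markers fell (Cldn5 -1.47 ± 0.16, Pecam1 -0.65 ± 0.060), with a median of -0.74, and their summed signal ran from 6832 to 9895 in KO RNA and from 11919 to 20494 in WT RNA, lower in KO RNA on 12 of 12 arrays. Blood and lymphatic endothelial cells are known sources of Cxcl12 and Ccl21. Of 5 lymphatic markers 2 fell, Lyve1 (-0.91 ± 0.17) and Reln (-0.42 ± 0.093), and the sum was lower on 11 of 12 arrays. The lymphatic estimates ran from -0.91 to 0.36, with a median of -0.13 and 1 of 5 above 0. The endothelial median by pair was -0.62 (A), -0.74 (B, where Cxcl12 stood near 0), -0.68 (C) and -1.11 (D). None of 10 macrophage markers passed, and all 10 had estimates below 0 (median -0.25), beside 10821 of all 20597 genes tested. The macrophage sum ran from 73940 to 298570 in KO RNA and 126671 to 395074 in WT RNA, lower on 8 of 12 arrays. The lowest macrophage medians were on replicates 9 (-1.23), 7 (-0.70) and 1 (-0.61), and replicates 1 and 9 were also the lowest for Ccl6. Replicate 6, next lowest for Ccl6 (-1.64), had a macrophage median of -0.15. On replicate 5 Ccl6 stood at -0.63 and the macrophage median at 0.37. T-cell, NK-cell and B-cell marker lists gave 0 calls, with medians of -0.076, -0.050 and -0.022, and neutrophil and lung epithelial lists gave 0 as well. Itgax of the dendritic cell list (-0.54 ± 0.15), Prdm1 of the plasma cell list (-0.28 ± 0.052) and Lum of the fibroblast list (1.13 ± 0.30, a rise) were the other calls. Other members of these lists went both ways, and the list medians were -0.069, -0.17 and -0.19. Estimates ran from -0.54 to 0.75 in the dendritic cell list, from -2.07 to 0.17 in the plasma cell list and from -0.67 to 1.13 in the fibroblast list. What these cell types contributed to the chemokine ratios was not tested.

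By position in the files (mm7, genes within 1 Mb joined), members fall into clusters, and no cluster held more than 1 call. The 6 genes from Ccl2 to Ccl1 on chromosome 11 (82118723 to 82258468) had 0 calls and a median of 0.025. The adjoining 5 genes from Ccl5 to Ccl4 (83595699 to 83734514) had 1 call, Ccl6, and a median of -0.39. On chromosome 5 (90732453 to 90894807) the cluster of Cxcl5, Ppbp, Pf4, Cxcl15, Cxcl1 and Cxcl2 held estimates from -0.21 to 1.74, with Pf4 the only call and Ppbp beside it. The 7 receptors on chromosome 9 (123499521 to 123827194), from Ccr9 to Ccr2, had 0 calls and a median of -0.049.

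Of 13 member genes with several kept probes, the probes had the same sign in 10 and opposite signs in 3 (Ccr3, Cxcl15 and Cxcr4). Over all 64 kept member probes, 2 were called higher and 2 lower (limma over 35562 probes, of which 5.71% were called), so Cxcl12 and Ccl21c missed the threshold there.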

How the data were processed

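The scanner files hold spot intensities from Agilent Feature Extraction 10.1.1.1 (protocol GE2-v5_10_Apr08, array design 014868), per the file headers. The authors' deposited mean and local background intensities are not normalized, and Agilent's processed intensities are background-subtracted and dye-normalized. The authors' value table holds log2 ratios (limma is named in the submitters' processing notes), with the method of centring unknown. Against these, correlations were 0.9925 to 0.999 with slopes of 1.005 to 1.055 and column medians from -0.011 to 0.0078, so both run as KO over WT.

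With limma 3.58.1 (R 4.3.3, statmod 1.5.0), signals were corrected by normexp (offset 50), outlying local backgrounds being replaced by the array's median for that dye, and normalized by loess. Control and outlier spots had weight 0. Ratios were turned to KO over WT and fitted with a dye term and with a random effect of the pair (consensus correlation 0.0789), with Benjamini-Hochberg adjustment. The fit was tested on simulated data. Names came from RefSeq accessions for 22951 probes and from the files for 11758, with 6465 unnamed. One receptor is included in the counts and is not reported singly here. Members and lists were chosen with earlier results of these data known. Named were Dnmt3a, marker genes, called members, the 8 ligands and 6 receptors of smallest p, and called pathway genes; other members follow by role. Alternatives covered background, normalization, filter, probes, dye, block, arrays, pairs, slides, variance, threshold and the authors' ratios. Ccr1l1 and the platelet role were added after the files were seen, as were the within-slide values.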

Additional observations from a re-analysis of the deposited data

How the results depend on the processing

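No receptor was called under any of the settings run, and the medians of ligands and receptors moved by less than their spread between arrays. The count of higher ligands (2) was 1 with median centring, without pair A, without pair C and with pairs A and B alone, and 0 over the 4 pair means and within slides 1, 2 and 3. The count of lower ligands (4) was 2 with local backgrounds as deposited and without pair B. It was 1 with array weights, without pair C and without pair D, and 0 with median centring, without pair A, with pairs A and B alone, over the 4 pair means and within slides 1, 2 and 3. Single arrays left out gave 1 to 3 higher and 1 to 4 lower ligands. Counts need not stand for the same genes: 3 higher ligands must include 1 that was not called in the main fit. Pf4 also lost its call without pair D (limma adjusted p = 0.0955).

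Cxcl15 turned positive with median centring (0.093), the mean of its probes (0.034), without pair A (0.21), without pair D (0.017), with pairs A and B alone (0.016), array weights (0.052), within slide 2 (0.52) and at its other probe (0.080), and ranged from -0.11 to 0.11 with single arrays left out. Ccr6 turned positive with pairs A and B alone (0.019) and within slide 1 (0.11). Within slide 2, Ccr9 (0.015), Cxcr2 (0.016) and Ccr2 (0.31) did, and Cxcr4 did at its other probe (0.025). For these the cause was not tested.

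Without the replicate block of the pair, 2212 genes were called in place of 1471, and all 6 ligand calls held, with Ppbp added (-0.21, adjusted p = 0.0460). A block on red over green ratios gave 2184 calls, median centring 359, and the 4 pair means 48. Without pair A there were 400 calls. Local backgrounds as deposited gave 766 higher and 517 lower calls (59.7% higher, against 47.2%). Fewer arrays and fewer values enter the pair and slide settings. Signal over background limits slide 3 most, and the labels do not show that the 12 arrays come from more than 4 pairs of animals. Agreement between arrays of one pair may be technical.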
